A study of Mus musculus with 6 samples.

Results

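The genes described here belong to the Klf2 axis, the set of transcription factors and receptors that lets T cells home to lymphoid organs and leave them again. There were 8 of them among the 27998 genes listed: the transcription factor genes Klf2, Klf3, Foxo1 and Foxp1, the receptor genes S1pr1, S1pr4 and Ccr7, and Cd69, whose product opposes S1pr1. They were taken by symbol and not by a cut on a measured value, but with earlier results of these data known. All 8 passed the filter on low counts in each comparison by tissue. The data are raw counts of unique molecular identifiers (UMIs) from single CD4+ T cells sorted out of the spleen (3 libraries) and out of vascular tissue (3 libraries). All 6 libraries came from C57/B6 mice with the treatment label PPE. An abdominal aortic aneurysm had been induced with elastase at 8 to 12 weeks of age, and tissue was taken 14 days after surgery. Aortas were digested with enzymes and spleens were ground without them, so tissue and dissociation cannot be told apart, and untreated aorta was not analysed here. The labels do not say that libraries were separate animals, so the p-values rest on how far libraries of 1 tissue lie apart, and that spread can be technical.

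Foxo1 is a transcription factor held in the nucleus of resting T cells, where it drives Klf2 and Ccr7. Klf2 is a zinc finger factor that drives S1pr1, the receptor with which T cells follow sphingosine 1-phosphate (S1P) out of lymphoid organs, while Ccr7 guides them into the T cell zones. Cd69 is induced by activation and takes S1pr1 protein off the cell surface, a step that counts of RNA do not show. Klf3 is a related factor that mostly represses, Foxp1 keeps naive T cells quiescent, and S1pr4 is a second S1P receptor of lymphocytes.

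The 8 genes are protein-coding in the GENCODE annotation of mm10, the build of the deposited files. The factors lie at chr8:72319033-72321656 (Klf2, plus strand), chr5:64803388-64832901 (Klf3, plus strand), chr3:52268336-52353221 (Foxo1, plus strand) and chr6:98925338-99522721 (Foxp1, minus strand). The receptors lie at chr3:115710433-115715072 (S1pr1), chr10:81497747-81500132 (S1pr4) and chr11:99144196-99155077 (Ccr7), and Cd69 lies at chr6:129267325-129275436, all on the minus strand. Promoter windows from RefSeq (GRCm38.p6, the 250 bases before an annotated start) matched 5 of the 8 genes. The windows of Klf2 and S1pr4 are shown, 5′ to 3′ on the strand of the gene, because they hold letters tied to this axis: capitals mark the 10 bases of a MEF2 site, or a match to CCACCC, the core bound by KLF factors, in either orientation (GGGTGG on the other strand). They span chr8:72318812-72319061 and chr10:81500138-81500387, and the last bases of the first window lie inside the gene as GENCODE draws it.
Klf2: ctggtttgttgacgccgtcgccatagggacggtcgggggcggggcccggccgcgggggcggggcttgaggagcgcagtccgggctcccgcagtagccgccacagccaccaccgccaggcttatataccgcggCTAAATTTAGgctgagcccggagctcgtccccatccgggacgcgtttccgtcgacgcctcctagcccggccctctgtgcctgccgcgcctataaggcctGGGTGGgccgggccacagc
S1pr4: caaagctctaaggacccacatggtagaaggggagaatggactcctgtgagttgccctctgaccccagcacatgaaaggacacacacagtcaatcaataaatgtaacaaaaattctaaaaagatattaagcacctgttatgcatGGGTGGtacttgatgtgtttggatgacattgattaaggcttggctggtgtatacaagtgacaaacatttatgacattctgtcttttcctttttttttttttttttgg
The MEF2 letters, capitals in the first window and the same on both strands, occurred in 0.0396% of the 32851 windows of this length and, among the windows of the 8 genes, in that of Klf2 alone. CCACCC occurred in 28.1% of all windows and in windows of Klf2, Klf3, S1pr4 and Foxp1. The forkhead core GTAAACA, which FOXO factors bind, occurred in 3.17% of all windows and in none of those matched here. The 3 motifs were searched on both strands, and a match describes letters only.

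The 6 libraries held 41315 barcodes and 240821626 UMIs. After filters and doublet removal, 36031 cells with at least 1 Cd3e UMI remained, 2133 to 8484 per spleen library and 4389 to 7267 per vascular library, with library medians of 4207 to 5750 UMIs. Cd4 was seen in 54.0% to 60.1% of them in spleen and 62.5% to 64.4% in vascular tissue, and Cd8a in 0.141% to 0.294% and 0.735% to 0.950%. Summed levels of 17 immediate early genes ran from 6983 to 7687 CPM (UMIs of a gene per 1000000 UMIs of the same cells) in spleen and from 10499 to 12760 in vascular tissue, and those of 10 heat shock genes from 4366 to 5192 and from 10480 to 12601. Of 5 markers of plasmacytoid dendritic cells all 5 were higher in vascular cells, with summed levels of 365.6 to 509 against 224 to 271, and Siglech itself stood at 24.0 to 35.0 against 1.10 to 2.12. Any 2 libraries shared 18 to 136 barcodes, 0.766% to 1.69% of the smaller one. Spleen library 1 was the smallest, with 2312 barcodes. The part of any of these in the differences below was not tested unless a value is given.

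Across all Cd3e+ cells, 7 of the 8 genes were lower in vascular tissue than in spleen. Of 12223 genes tested 41.2% passed (18.2% as lower, 23% as higher), and the median log2 difference was 0.01 over all genes and -0.56 over the 8. Klf2 stood at 1009, 1169.8 and 1285 CPM in spleen libraries 1 to 3 and at 514, 711 and 788 in vascular libraries 1 to 3. Every vascular library lay below every spleen library. The difference was -0.81 ± 0.16 on the log2 scale (SE, n = 3 against 3, adjusted p = 0.00435, edgeR quasi-likelihood test). Its relative Klf3 went from 143 ± 13.1 to 106 ± 6.04 CPM (SD, n = 3), a difference of -0.45 ± 0.09 (adjusted p = 0.00361). Foxo1, the inducer of Klf2, fell by 0.47 ± 0.09 (adjusted p = 0.00466), from 152 ± 10.97 to 112 ± 8.91 CPM. For Foxp1 the libraries read 201, 185 and 173 in spleen and 104, 118 and 133 in vascular tissue, again without overlap, and the log2 difference was -0.68 ± 0.10 (adjusted p = 0.00104).

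Among the receptors, S1pr1 read 280.5, 235 and 241 CPM in spleen and 112, 152 and 179.7 in vascular libraries 1 to 3. The log2 difference of this egress receptor was -0.79 ± 0.15 (adjusted p = 0.00378). Ccr7 was nearly level over the spleen libraries, at 505, 505 and 497, whereas the vascular libraries read 223, 379.8 and 379. Its log2 difference of -0.64 ± 0.18 passed (adjusted p = 0.0198), but without spleen library 2 the adjusted p was 0.0501. S1pr4 moved least of the receptors, from 98.0 ± 10.1 to 78.7 ± 8.04, with a highest vascular value of 87.5 and a lowest spleen value of 87.9. Its difference of -0.34 ± 0.11 passed (adjusted p = 0.0348), but it did not pass when spleen library 2 or 3, or vascular library 1 or 2, was left out (adjusted p from 0.0840 to 0.132).

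Cd69 was the one gene of the 8 whose libraries overlapped. It read 295, 359 and 309 CPM in spleen and 521, 423 and 289 in vascular tissue, so vascular library 3 lay below all spleen libraries. The log2 difference was 0.33 ± 0.20 (adjusted p = 0.208), and without vascular library 3 it was 0.53 (adjusted p = 0.0180). Over all genes tested, 53.8% had libraries that did not overlap between tissues.

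**Figure D1:**
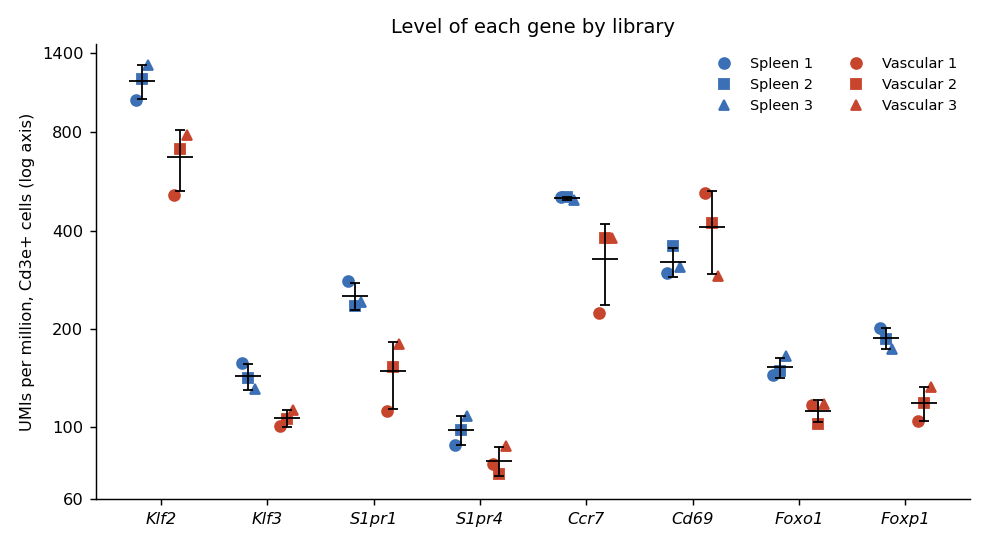
CPM of each gene summed over the Cd3e+ cells of a library (log axis), with blue symbols for the 3 spleen libraries, red symbols for the 3 vascular libraries, and bars for the mean and SD. For Klf2 the spleen libraries lie between 1009 and 1285 and the vascular libraries between 514 and 788, and only for Cd69 do the tissues overlap.

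The cells of the 2 tissues differed in their markers. Each Cd3e+ cell was put into 1 of 5 exclusive classes by its UMIs: with Foxp3, the factor of regulatory T cells, else with the effector cytokine gene Ifng, else with Cd44, a surface protein of antigen-experienced cells, else with Igfbp4, which is high in naive CD4+ T cells, else with none of these (ungated). Igfbp4+ cells took 42.8% to 45.2% of Cd3e+ cells in spleen and 6.29%, 13.5% and 23.4% in vascular libraries 1 to 3, while Ifng+ cells took 6.99% to 8.16% and 36.6%, 28.6% and 18.3%. Vascular library 1 thus held the fewest Igfbp4+ cells and read lowest for Klf2, S1pr1 and Ccr7, and vascular library 3 held the most and read highest for Klf2 and S1pr1. Foxp3+ cells took 8.92% to 9.80% and 7.86% to 10.2%. In sums over all Cd3e+ cells, fewer cells of a high class and less RNA per cell cannot be told apart, so the genes were compared within classes. A class rests on at least 1 UMI, so a cell whose gate gene went unseen falls into a later class. Median depth was lowest in ungated cells, at 4350 to 4982 UMIs in spleen libraries and 3930 to 4269 in vascular libraries. The mix of cells within a class can therefore still differ between tissues, also at a fixed class mix, and its part was not tested.

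Among Foxp3+ cells, 6 of the 8 genes were lower in vascular tissue, where 24.7% of 10064 genes passed (10% as lower, 14.7% as higher). The largest differences were those of Klf3 and Klf2. Klf2 read 767, 940.4 and 1015 CPM in spleen and 298, 347 and 412 in vascular libraries. Klf3 read 147, 133 and 122 in spleen and 40.4, 52.0 and 51.0 in vascular libraries. Both genes had vascular values under every spleen value. The log2 differences were -1.38 ± 0.14 for Klf2 (adjusted p = 8.95e-05) and -1.50 ± 0.12 for Klf3 (adjusted p = 1.81e-05). S1pr1 differed by -1.11 ± 0.19 (142 ± 11.8 against 67.2 ± 20.1 CPM, adjusted p = 0.00191) and Foxp1 by -0.85 ± 0.10 (adjusted p = 0.000188). Ccr7 (-0.42 ± 0.11, adjusted p = 0.0159) did not pass without spleen library 2 or vascular library 3, and Foxo1 (-0.44 ± 0.15, adjusted p = 0.0495) not when spleen library 2 or 3, or vascular library 2 or 3, was left out. In cells low in immediate early genes (a share of UMIs on them at or under the median of spleen Cd3e+ cells) Ccr7 was -0.14 (adjusted p = 0.675), and in cells thinned to 2000 UMIs Foxo1 was -0.19 (adjusted p = 0.476). S1pr4 (-0.33 ± 0.14, adjusted p = 0.106) and Cd69 (0.17 ± 0.14, adjusted p = 0.394) did not pass, although S1pr4 did without spleen library 1 or vascular library 3.

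In the Ifng+ class, 5 genes fell and Cd69 rose, where 27.2% of 9989 genes passed (12.1% as lower, 15.2% as higher). Cd69 read 307, 382 and 288 CPM in spleen and 664, 634 and 432 in vascular tissue, with no overlap and a log2 difference of 0.98 ± 0.17 (adjusted p = 0.00205). Ccr7 went the other way, from 145 ± 6.99 to 66.1 ± 13.3, a difference of -0.99 ± 0.13 (adjusted p = 0.000270). S1pr1 (-0.79 ± 0.12), Klf3 (-0.62 ± 0.10), S1pr4 (-0.57 ± 0.12) and Foxp1 (-0.46 ± 0.11) also fell, with adjusted p from 0.000687 to 0.0123. Klf2 itself did not pass (-0.36 ± 0.16, adjusted p = 0.125). It did with library totals (-0.51, adjusted p = 0.0276) and without the filter on low counts (-0.33, adjusted p = 0.0421). Its spleen libraries were spread, at 650.4, 956 and 1032 against 531, 661 and 669, and leaving out 1 library gave -0.54 without spleen library 1 (adjusted p = 0.00312) to -0.23 without spleen library 3 (adjusted p = 0.408). Foxo1 was -0.01 ± 0.13 (adjusted p = 0.983), with a 95% interval of -0.26 to 0.25.

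In the Cd44+ class 5 genes fell, where 27.9% of 10315 genes passed (11.4% as lower, 16.4% as higher). S1pr4 fell from 128 ± 7.29 to 75.3 ± 13.9 CPM, a log2 difference of -0.69 ± 0.13 (adjusted p = 0.00279). Klf2 differed by -0.67 ± 0.16 (adjusted p = 0.0113), S1pr1 by -0.62 ± 0.12, Foxp1 by -0.55 ± 0.09 and Klf3 by -0.34 ± 0.10. The last of these was lost without spleen library 2 or any 1 of the vascular libraries. Ccr7 (-0.42 ± 0.15, adjusted p = 0.0620) depended on the setting. It was -1.11 in cells thinned to 2000 UMIs (adjusted p = 5.86e-05), -0.61 without cells holding a UMI of another lineage (adjusted p = 0.0223), -0.55 without vascular library 2 (adjusted p = 0.0347) and 0.01 in cells low in immediate early genes (adjusted p = 0.986), and it also passed with DESeq2, library totals and no filter. Klf3 was -0.21 (adjusted p = 0.337) and S1pr4 -0.55 (adjusted p = 0.0625) in cells low in immediate early genes. Foxo1 (-0.24 ± 0.10, adjusted p = 0.12) and Cd69 (0.31 ± 0.18, adjusted p = 0.237) did not pass. Foxo1 did without spleen library 1 (-0.30, adjusted p = 0.0387), with library totals and in cells thinned to 2000 UMIs. Cd69 passed without vascular library 3 (0.50, adjusted p = 0.0309).

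In Igfbp4+ cells 2 of the 8 genes passed, where 16.9% of 9555 genes did (10.6% as higher, 6.26% as lower), and both had the sign opposite to that in all Cd3e+ cells. Ccr7 read 706, 694 and 696 CPM in spleen and 1214, 1254 and 829 in vascular tissue, all above the spleen values, and rose by 0.77 ± 0.15 (adjusted p = 0.00628). Cd69 fell from 294 ± 33.2 to 197 ± 7.61, a log2 difference of -0.46 ± 0.12 (adjusted p = 0.0223) that did not pass when spleen library 2 or 3, or vascular library 2 or 3, was left out. Klf2 read 1231, 1306 and 1481 against 1163, 1218 and 1230.0, with a difference of -0.04 ± 0.10 and a 95% interval of -0.23 to 0.15. S1pr1 stood at 303 ± 45.8 and 303 ± 35.8, a difference of 0.12 ± 0.13 with an interval of -0.13 to 0.37. Foxp1 (0.10 ± 0.10), Foxo1 (-0.10 ± 0.11), S1pr4 (-0.09 ± 0.13) and Klf3 (0.33 ± 0.11, adjusted p = 0.0548) did not pass, and Klf3 did without spleen library 1 (0.37, adjusted p = 0.0239). Klf3 also passed as higher with DESeq2 (adjusted p = 0.0486), without cells of other lineages (adjusted p = 0.0419) and thinned to 2000 UMIs (adjusted p = 0.0499). Cd69 did not pass when thinned in this way (-0.41, adjusted p = 0.0570).

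In the ungated class Klf2 (-0.62 ± 0.17, adjusted p = 0.02), Foxp1 (-0.58 ± 0.12), Foxo1 (-0.40 ± 0.08) and S1pr4 (-0.37 ± 0.11) fell, 4 of 8 where 30.3% of 10384 genes passed (13.4% as lower, 17% as higher). Klf2 read 1033, 1216 and 1265 in spleen and 511, 818 and 851 in vascular libraries, and its call was lost without spleen library 2 or 3 (adjusted p = 0.0623 and 0.0646). The call of S1pr4 was lost when spleen library 2 or 3, or vascular library 1 or 2, was left out. S1pr1 was -0.38 ± 0.15 (adjusted p = 0.0842) and passed without vascular library 3 (-0.56, adjusted p = 0.0135), while Ccr7, Klf3 and Cd69 did not pass.

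**Figure D2:**
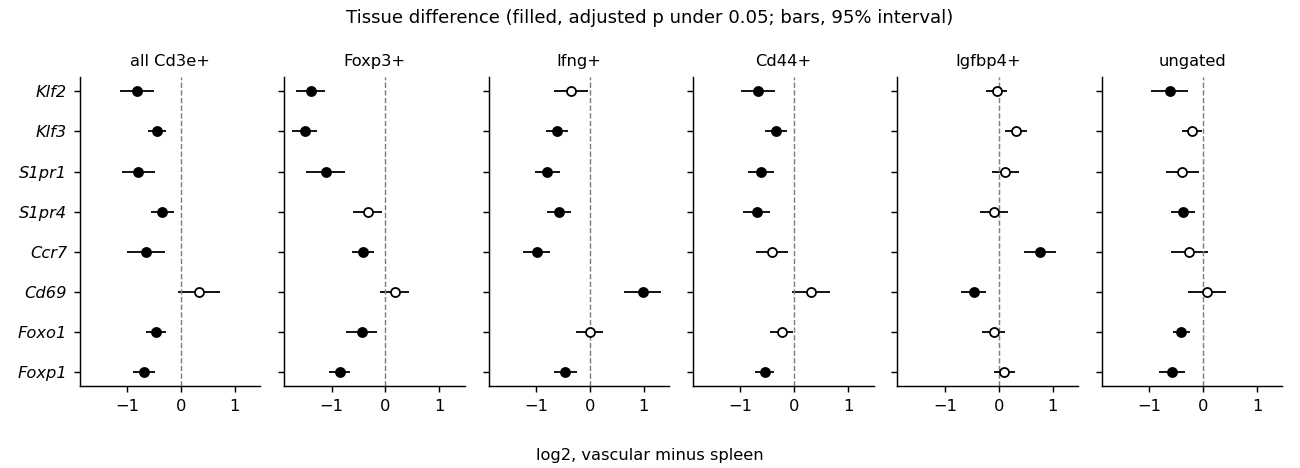
Log2 difference of each gene, vascular minus spleen, in all Cd3e+ cells and in the 5 classes, with 95% intervals (SE times a normal quantile) and filled points for an adjusted p under 0.05. Klf2 runs from -1.38 in Foxp3+ cells to -0.04 in Igfbp4+ cells, and Ccr7 is the one gene that passes as higher in vascular Igfbp4+ cells, at 0.77.

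To hold the class mix fixed, the levels of the 5 classes in a library were weighted by the same shares, the mean over the 6 libraries. The log2 difference of Klf2 was then -0.50, against -0.80 unweighted. S1pr1 went from -0.79 to -0.39 and Foxp1 from -0.66 to -0.42, while S1pr4 went from -0.32 to -0.49. All 6 genes other than Ccr7 and Cd69 kept vascular libraries below spleen libraries (exact permutation p = 0.1 each, the smallest that 3 against 3 allows, adjusted p = 0.133). With the mean shares of the spleen libraries as weights, Klf3 was -0.18 and its libraries overlapped (exact permutation p = 0.2). Ccr7 moved from -0.66 to 0.17 (exact p = 0.3), and its sign depended on the weights: it was 0.31 with the spleen shares and -0.06 with the vascular shares. Cd69 was 0.13 (exact p = 0.6).

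The share of cells with a UMI of a gene was also counted. In cells thinned to 1000 UMIs, Klf2 was seen in 54.6%, 59.7% and 61.9% of Cd3e+ cells in spleen and 27.8%, 37.1% and 41.8% in vascular tissue. Ccr7 was seen in 35.4% ± 1.09 and 16.2% ± 5.42, and S1pr1 in 22.4% ± 2.15 and 13.0% ± 3.45 (SD, n = 3, exact permutation p = 0.1 for each, adjusted p = 0.133). Cd69 was seen in 25.5% ± 2.08 and 28.8% ± 6.30 (exact p = 0.6). Without thinning the shares were 88.4% and 62.1% for Klf2, 72.0% and 30.2% for Ccr7, 64.7% and 39.3% for S1pr1 and 66.6% and 63.5% for Cd69. Cells with at least 2 Siglech UMIs and no Cd3e UMI, 146 in spleen and 1112 in vascular tissue, were counted beside them as a possible measure of background. At the same thinning, 0.685% and 0.270% of them had an S1pr1 UMI and 0% and 4.05% a Ccr7 UMI, where 0 of 146 cells allows a share of up to 2.05%. Their median depths were 7488 and 8212.5 UMIs, against 5113.5 and 4515 in Cd3e+ cells. Klf2 was seen in 64.4% and 44.8% of them, so for Klf2 these cells are no background. Without thinning, Ccr7 was seen in 8.22% and 16.1% of them, and whether that is background or their own RNA was not tested. Ccr7-positive cells of the vascular tissue held more of it, 2.07 UMIs per positive cell against 1.54 in spleen, while S1pr1 held 1.22 in both tissues.

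The order of the 10 combinations of class and tissue set the genes apart. Klf2 was highest in spleen Igfbp4+ cells (1339 ± 128 CPM), with a lowest library of 1231 just above the highest of 1230.0 in vascular Igfbp4+ cells (1204 ± 35.4), and lowest in vascular Foxp3+ cells (352 ± 57.4). Between the fourth and the last place each neighbouring pair overlapped. S1pr1 was level at the top in both Igfbp4+ classes (303 each) and also lowest in vascular Foxp3+ cells (67.2 ± 20.1). Ccr7 was highest in vascular Igfbp4+ cells (1099 ± 235) and lowest in vascular Ifng+ cells (66.1 ± 13.3), and most neighbours in its order did not overlap. S1pr4 had its top in spleen Ifng+ (140.1 ± 18.5) and Cd44+ cells (128 ± 7.29) and its lowest places in the Igfbp4+ cells of both tissues (74.5 ± 10.9 and 64.5 ± 8.67). Cd69 was highest in vascular Ifng+ cells (577 ± 126) and lowest in vascular Igfbp4+ cells (197 ± 7.61), and from the first place down to the spleen Igfbp4+ cells each neighbouring pair overlapped.

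**Figure D3:**
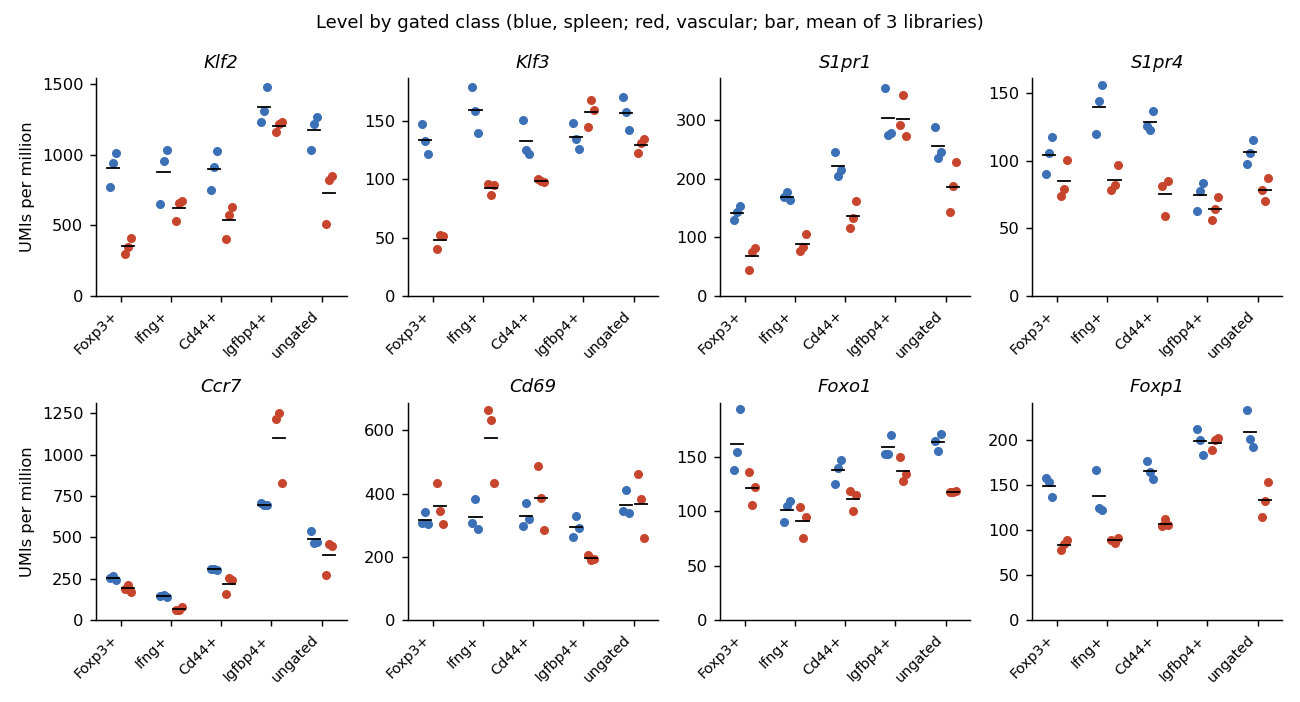
CPM of each gene in the 5 classes, with blue points for spleen libraries, red points for vascular libraries and a bar for each mean of 3. Klf2 lies between 298 and 412 in vascular Foxp3+ cells, and Ccr7 in vascular Igfbp4+ cells lies between 829 and 1254.

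The gates were also tested singly, comparing within each library the cells with a UMI of the gate gene and the cells without one. TMM scaling sets the median gene near 0. With plain library totals that median was 0.18 for the Foxp3 gate, 0.18 for Cd44, 0.12 for Ifng, -0.34 for Igfbp4 and -0.14 for Klf2, so the differences are relative to the median gene. Over libraries, median depth was 4722 to 6150 UMIs in cells with a Foxp3 UMI against 4180 to 5730 in cells without one, and 4822 to 6162.5 against 4164 to 5284 for Igfbp4. The ranges were 4485.5 to 6563.5 against 4044 to 5605 for Cd44, 4246 to 6323.5 against 4186 to 5707 for Ifng and 4320.5 to 6012 against 3979 to 5231 for Cd69.

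Cells with a Foxp3 UMI read lower for 6 of the 8 genes, where 44.7% of 11519 genes passed (22.8% as lower, 21.9% as higher). S1pr1 differed by -1.28 ± 0.09, Ccr7 by -1.15 ± 0.11, Klf2 by -0.91 ± 0.11, Klf3 by -0.86 ± 0.19 and Foxp1 by -0.66 ± 0.06 on the log2 scale (adjusted p from 2.46e-06 to 0.00402). Cd69 passed at -0.31 ± 0.06 but was -0.10 with library totals (adjusted p = 0.215). S1pr4 and Foxo1 were both -0.10 and did not pass, and both were 0.11 with library totals. For Klf3 the log2 ratio of CPM averaged -0.10 in spleen and -1.28 in vascular tissue, and the gate difference differed between tissues by -1.20 ± 0.09 (adjusted p = 2.64e-06). For Klf2 the 2 averages were -0.39 and -1.02, with a difference between tissues of -0.66 ± 0.08 (adjusted p = 0.000141), which was -0.34 in cells low in immediate early genes (adjusted p = 0.144). S1pr1 differed between tissues by -0.43 ± 0.12 (adjusted p = 0.0428), which was lost without any 1 of 5 libraries, all but spleen library 1. These were 3 of 8 genes where 8.63% of all genes passed (5.58% as lower, 3.05% as higher).

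Cells with a Cd44 UMI read lower for 6 genes, where 42.9% of 11886 genes passed (21.1% as lower, 21.7% as higher). Ccr7 differed by -1.58 ± 0.06, S1pr1 by -0.83 ± 0.07, Klf2 by -0.82 ± 0.06, Foxp1 by -0.65 ± 0.06, Klf3 by -0.55 ± 0.07 and Foxo1 by -0.45 ± 0.05 (adjusted p at most 0.000159). S1pr4 was 0.05 ± 0.08 and Cd69 -0.12 ± 0.06, the latter 0.07 with library totals. Between tissues 2 genes differed, where 4.64% of genes did (1.44% as higher, 3.2% as lower). For S1pr4 the plain log2 ratio averaged 0.51 in spleen and -0.01 in vascular tissue, and the fitted difference between tissues was -0.41 ± 0.08 (adjusted p = 0.0102). It was lost without spleen library 2 or 3. Cd69 differed by 0.33 ± 0.06 (adjusted p = 0.00520), which was lost without spleen library 3 (adjusted p = 0.0506) and with library totals (0.23, adjusted p = 0.0736). In cells thinned to 2000 UMIs neither passed, at -0.30 for S1pr4 (adjusted p = 0.365) and 0.21 for Cd69 (adjusted p = 0.3).

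At the Ifng gate 6 genes were lower and S1pr4 was higher, where 23.5% of 11806 genes passed (12.4% as lower, 11.1% as higher). Ccr7 showed the largest difference of the 8 genes at any gate, -2.33 ± 0.10 (adjusted p = 1.10e-06): it read 540.3 ± 8.55 and 152 ± 13.1 CPM in spleen cells without and with Ifng, and 429 ± 95.6 and 74.3 ± 8.85 in vascular cells. S1pr1 differed by -0.97 ± 0.06, Foxp1 by -0.67 ± 0.07, Foxo1 by -0.61 ± 0.08, Klf2 by -0.48 ± 0.11 and Klf3 by -0.23 ± 0.06. The call of Klf3 was lost without vascular library 2 or 3 and with library totals (-0.09, adjusted p = 0.527). Its plain log2 ratio of CPM averaged 0.16 in spleen, above 0 in each spleen library, and -0.32 in vascular tissue. S1pr4, at 0.21 ± 0.05 (adjusted p = 0.0130), was higher in the cells with Ifng in 6 of 6 libraries. Cd69 did not pass at this gate (0.24 ± 0.16, adjusted p = 0.321). Thinned to 2000 UMIs, Klf2 (-0.33, adjusted p = 0.0547), Klf3 (-0.17, adjusted p = 0.204) and S1pr4 (0.23, adjusted p = 0.0830) no longer passed. Cd69 then passed as higher (0.50, adjusted p = 0.0109). Between tissues 4 genes differed, where 11.7% of genes did (5.22% as higher, 6.45% as lower). Cd69 had a ratio of 0.01 in spleen and 0.75 in vascular tissue, a difference of 0.96 ± 0.09 (adjusted p = 1.21e-05). Klf2 differed by 0.53 ± 0.10, Foxo1 by 0.40 ± 0.09 and Ccr7 by -0.44 ± 0.10. Foxo1 was lost without spleen library 3 and Ccr7 without spleen library 1. Foxo1 was 0.18 with library totals (adjusted p = 0.178), and in cells low in immediate early genes Klf2 was -0.13 (adjusted p = 0.693), Ccr7 -0.25 (adjusted p = 0.455) and Foxo1 0.33 (adjusted p = 0.208).

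Cells with an Igfbp4 UMI read higher for 6 genes, where 49.1% of 12319 genes passed (22.8% as higher, 26.3% as lower). Ccr7 differed by 2.02 ± 0.25, S1pr1 by 1.18 ± 0.14, Klf2 by 1.03 ± 0.11, Foxp1 by 0.85 ± 0.11, Klf3 by 0.59 ± 0.13 and Foxo1 by 0.57 ± 0.05 (adjusted p from 6.52e-06 to 0.00264). For Klf3 the plain log2 ratio of CPM averaged -0.12 in spleen, below 0 in each spleen library, and 0.66 in vascular tissue. Klf3 did not pass with library totals (0.26, adjusted p = 0.0935), while S1pr4 (-0.16 ± 0.07) and Cd69 (-0.32 ± 0.14), which did not pass, did so as lower (-0.49 and -0.65). All 8 genes differed between tissues at this gate, where 9.01% of all genes did (4.47% as higher, 4.54% as lower). Ccr7 read 335 ± 9.04 and 667 ± 5.83 CPM in spleen cells without and with Igfbp4, and 193 ± 45.6 and 1015 ± 209 in vascular cells. Its gate difference was larger in vascular tissue by 1.39 ± 0.20 (adjusted p = 0.000380). S1pr1 and Klf3 were larger by 0.78 ± 0.13 and 0.78 ± 0.08, Foxp1 by 0.67 ± 0.07 and Klf2 by 0.62 ± 0.07. Klf2 read 1002 ± 144 and 1305 ± 145 CPM in spleen cells without and with Igfbp4, and 571 ± 94.7 and 1143 ± 54.8 in vascular cells. Cd69 differed by -0.78 ± 0.12 (adjusted p = 0.00101). These 6 passed without each library in turn. S1pr4 (0.33 ± 0.09) and Foxo1 (0.22 ± 0.07, adjusted p = 0.0497) did not, S1pr4 failing without any spleen library or vascular library 2 and Foxo1 without 5 of the 6 libraries.

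**Figure D4:**
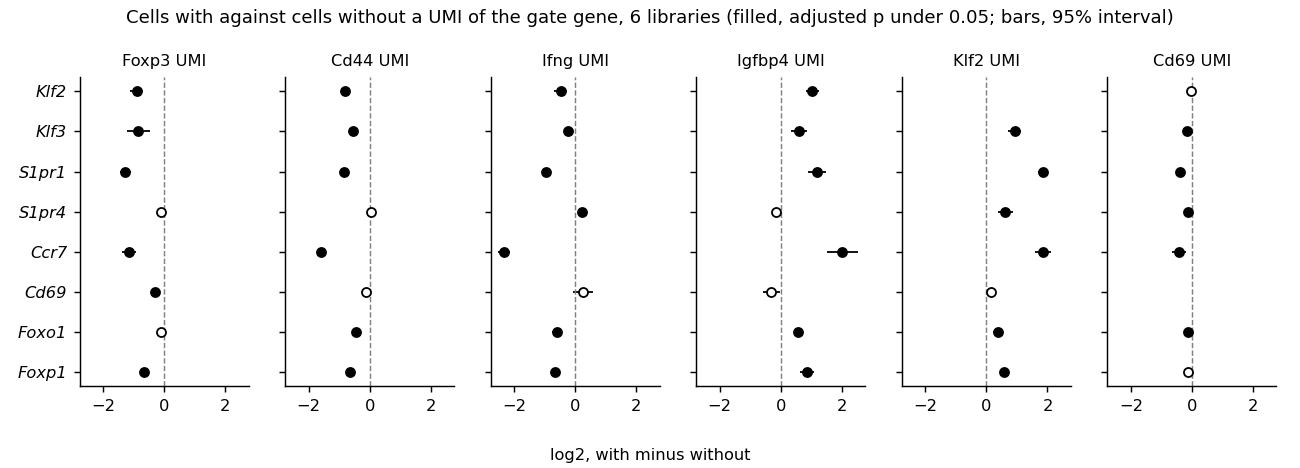
Log2 difference of each gene between Cd3e+ cells with and without a UMI of the gate gene over 6 libraries, with 95% intervals and filled points for an adjusted p under 0.05. Ccr7 spans -2.33 at the Ifng gate to 2.02 at the Igfbp4 gate.

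Klf2 served as a gate for the other 7 genes, of which 6 were higher in cells with a Klf2 UMI (25.3% of 11924 genes passed, 13% as higher and 12.3% as lower). S1pr1, the target of Klf2, read 79.4 ± 12.8 and 273 ± 28.0 CPM in spleen cells without and with a Klf2 UMI, and 62.0 ± 7.53 and 192 ± 33.8 in vascular cells. The difference was 1.86 ± 0.08 (adjusted p = 1.17e-06) and positive in 6 of 6 libraries. Ccr7 matched it at 1.86 ± 0.14, followed by Klf3 (0.93 ± 0.11), S1pr4 (0.62 ± 0.12), Foxp1 (0.57 ± 0.07) and Foxo1 (0.37 ± 0.07). Cd69 was 0.16 ± 0.05 (adjusted p = 0.0531). It was -0.0039 with library totals and passed as higher without other lineages (0.24, adjusted p = 0.00536), thinned to 2000 UMIs (0.19, adjusted p = 0.00257), without doublet removal and without the filter. Between tissues, S1pr4 differed by -0.64 ± 0.13 (adjusted p = 0.00441), Foxo1 by -0.36 ± 0.08 and Ccr7 by 0.58 ± 0.17, 3 genes where 9.49% of all did (4.96% as higher, 4.53% as lower). S1pr4 was lost without spleen library 3 and thinned to 2000 UMIs (-0.38, adjusted p = 0.0893), and Foxo1 was -0.18 in cells low in immediate early genes (adjusted p = 0.411). Foxo1 was also lost without spleen library 2 or 3, and Ccr7 without any spleen library or vascular library 1 or 2. Ccr7 did not pass with DESeq2 (0.57, adjusted p = 0.374) or without doublet removal (0.51, adjusted p = 0.0591). With library totals Foxo1 was -0.23 (adjusted p = 0.0767). For S1pr1 the difference between tissues was -0.31 ± 0.11 (adjusted p = 0.0828). Over libraries, median depth was 4421 to 5836 UMIs in cells with Klf2 and 4057.5 to 5086 in those without.

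Cells with a Cd69 UMI read lower for 5 of the other 7 genes, where 8.61% of 11772 genes passed (3.06% as lower, 5.55% as higher). S1pr1 differed by -0.38 ± 0.07 (adjusted p = 0.00521) and was lower in 6 of 6 libraries. Klf3 (-0.15 ± 0.03), Ccr7 (-0.42 ± 0.12, adjusted p = 0.0495), Foxo1 (-0.13 ± 0.03) and S1pr4 (-0.12 ± 0.03) also passed. Without each library in turn, S1pr1 and Klf3 passed throughout, while Ccr7 was lost without any vascular library and Foxo1 and S1pr4 without any 1 of 5 libraries, all but spleen library 2. With library totals or with DESeq2, Ccr7, Foxo1 and S1pr4 did not pass, and Klf3 was 0.0061 in cells thinned to 2000 UMIs. Klf2 was -0.02 ± 0.04 (adjusted p = 0.882), with a 95% interval of -0.10 to 0.07. In cells thinned to 2000 UMIs, however, Klf2 was 0.13 and passed as higher (adjusted p = 0.0193). The 2 tissues differed: Ccr7 read 505 ± 12.3 and 501 ± 8.39 CPM in spleen cells without and with a Cd69 UMI, and 456 ± 137 and 268 ± 79.9 in vascular cells. The interaction was -0.77 ± 0.11 for Ccr7 (adjusted p = 0.00143), -0.43 ± 0.08 for S1pr1 (adjusted p = 0.00655) and -0.20 ± 0.05 for Foxp1 (adjusted p = 0.0439). These were 3 of 7 genes where 1.73% of all genes passed (0.688% as lower, 1.04% as higher). S1pr1 was lost without spleen library 2 or 3, and Foxp1 without any 1 library. In cells low in immediate early genes none of the 3 passed in edgeR, at -0.54 for Ccr7 (adjusted p = 0.106), -0.31 for S1pr1 (adjusted p = 0.285) and -0.23 for Foxp1 (adjusted p = 0.418).

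**Figure D5:**
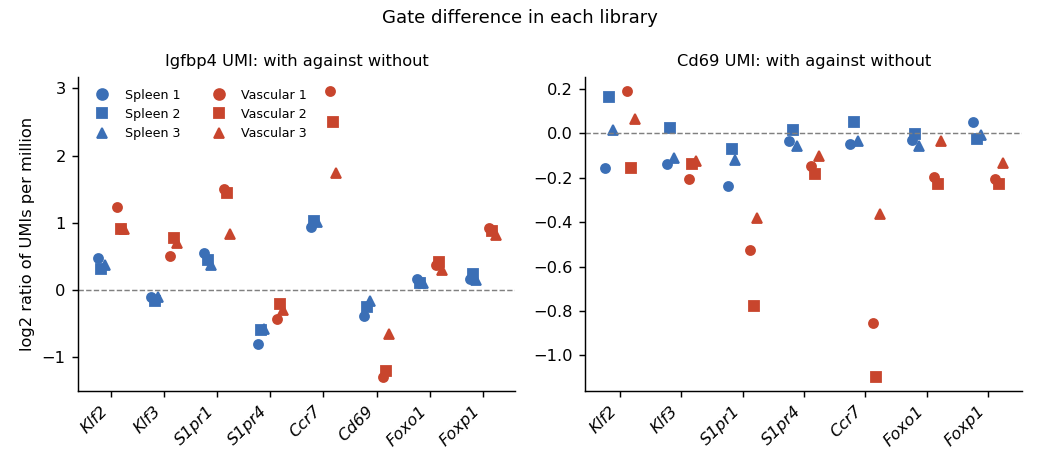
Log2 ratio of CPM in cells with and without an Igfbp4 UMI (left) and a Cd69 UMI (right), by library (blue spleen, red vascular). At the Cd69 gate S1pr1 lies below 0 in 6 of 6 libraries, and Ccr7 lies below 0 in all 3 vascular libraries.

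Cd69 is itself induced early, so cells were split at the median share of UMIs that the 17 immediate early genes took in spleen Cd3e+ cells (0.698%). The tests in the cells above it were added after the data had been seen. Cells above it were higher in Cd69 by 0.63 ± 0.10 in spleen and 1.16 ± 0.07 in vascular tissue on the log2 scale (SD, n = 3), and in Klf2 by 0.50 ± 0.03 and 0.84 ± 0.10. Cells below it made up 48.5% ± 3.96 of Cd3e+ cells in spleen and 28.1% ± 4.78 in vascular tissue. The tissue difference of Klf2 was -1.23 in the cells below (adjusted p = 0.000830) and -0.79 in the cells above (adjusted p = 0.00614). In the Ifng+ class it was -1.35 below (adjusted p = 0.000402) and -0.30 above (adjusted p = 0.208). S1pr1 in the Ifng+ class was -0.97 below and -0.61 above. In all Cd3e+ cells S1pr1 was -0.60 below and -0.92 above. Ccr7 was -0.34 in the cells below (adjusted p = 0.154) and -0.84 in the cells above (adjusted p = 0.0104), S1pr4 was -0.19 (adjusted p = 0.289) and -0.42 (adjusted p = 0.0115), and Cd69 was -0.27 (adjusted p = 0.340) and 0.34 (adjusted p = 0.130). The rise of Cd69 in Ifng+ cells was 0.21 below (adjusted p = 0.623) and 0.88 above (adjusted p = 0.000672).

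Which genes had a pattern like Klf2 was read from 30 sums, 5 classes in 6 libraries, over 2425 genes with a mean of at least 50 CPM. The sums share libraries and depth, so Pearson's r is a description. The 10 most alike were Dgka (0.93), which makes phosphatidic acid out of diacylglycerol, Rpl36al, Pdlim1, Gimap6, Rnf167, Rasgrp2, an activator of the integrin switch Rap1, Naca, Eif4b, Klhl6 and Rps18 (0.88). The 5 most opposed were Diaph1 (-0.94), which nucleates actin filaments, the proton-sensing receptor gene Gpr65, Wnk1, Tmed10 and Fnbp1 (-0.92). Of the other members, S1pr1 ranked 19 (0.87), Foxp1 38 (0.85) and Klf3 88 (0.80), before Ccr7 at 182 (0.63), Foxo1 at 236 (0.54), S1pr4 at 535 (0.14) and Cd69 at 1549 (-0.51). S1pr1 and Foxp1 had an r of 0.92 with each other, and S1pr4 and Ccr7 one of -0.36.

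Other genes of the pathway were compared by tissue in all Cd3e+ cells. Each count below is read against the 41.2% of all genes that passed in this comparison (23% as higher, 18.2% as lower). Of 15 S1P signalling genes tested, 4 rose and 4 fell (median log2 -0.13), which is near those shares. Rgs1, whose product damps chemokine and S1P receptor signals, went from 179 ± 8.68 to 1069 ± 218 CPM (2.55 ± 0.15), and Rgs16 (2.27 ± 0.08), Rgs2 (1.81 ± 0.19) and Gna13 (0.57 ± 0.17) rose with it. Sphk2, a kinase that makes S1P, fell by 0.92 ± 0.11, and the receptor kinase genes Grk6 and Adrbk1 (the symbol in the files for Grk2) by 0.74 ± 0.07 and 0.49 ± 0.09. Arhgef1 was also lower (-0.28 ± 0.08). Outside the rule for named genes, the receptor genes S1pr2 (-0.32 ± 0.14, adjusted p = 0.0958) and S1pr5 (-1.09 ± 0.42, adjusted p = 0.0641) did not pass.

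Of 20 homing and adhesion genes, 4 rose and 5 fell (median 0.07), near the 23% and 18.2% of all genes. The follicle receptor gene Cxcr5 fell by 1.31 ± 0.23, and Icam2 (-0.96 ± 0.19) and Rassf5 (-0.31 ± 0.09) were also lower. Cxcr4 (1.28 ± 0.13) and Itgb1 (1.01 ± 0.11) rose, with Itga4 and Rap1b. Of 9 other KLF genes tested, 4 rose and none fell: Klf4 (2.11 ± 0.29), Klf10 (1.64 ± 0.19), Klf6 (0.73 ± 0.12) and Klf11 (0.61 ± 0.21). Of 10 other forkhead genes Foxo4 rose (0.41 ± 0.14) and Foxn3 fell (-0.30 ± 0.08).

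Of 16 genes that act on Foxo1 or Klf2 from above, 1 rose and 4 fell, fewer than the 41.2% of all genes. The riser was Sgk1 (0.68 ± 0.09), a kinase that FOXO factors are substrates of, and those lower were Pdk1 (-0.91 ± 0.19), which under this symbol is a pyruvate dehydrogenase kinase and not the kinase of the PI3K pathway, Pik3ip1 (-0.77 ± 0.27), Pik3cd (-0.77 ± 0.09) and Akt2 (-0.34 ± 0.08). Of 15 genes known as Foxo1 targets, 6 rose and 6 fell (median 0.24). Tcf7 (-1.08 ± 0.17), Lef1 (-1.14 ± 0.22) and Bach2 (-0.93 ± 0.14), transcription factor genes of naive and memory T cells, were lower, and Bcl2l11 (1.40 ± 0.18), Bcl6 (1.39 ± 0.17), Cited2 and Gadd45a were higher. Outside the rule for named genes, the interleukin 7 receptor gene Il7r, also a gene of naive and memory T cells, rose by 0.59 ± 0.15 (adjusted p = 0.0135). Of 13 genes of tissue-resident T cells 12 rose, with the smallest p for Crem (3.94 ± 0.22), Cxcr6 (3.11 ± 0.22), Bhlhe40 (3.0 ± 0.27) and Rgs1, and P2rx7 fell (-0.34 ± 0.12). Beside each of these lists, 13 of 17 immediate early genes and 9 of 10 heat shock genes rose, and their part in the differences was not tested.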

How the data were processed

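Single-cell libraries (10x, 5′ end) held the deposited raw UMI counts per gene and cell, whole numbers per the file headers and values. Per the submitters' processing notes, FastQC 0.11.8, Cell Ranger 2.2.0, STAR 2.5.1b and Seurat were used with mm10, with roles not given in the sources used here.

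Of 41315 barcodes, 41303 passed a minimum of 300 genes and a limit of 10% mitochondrial UMIs, and 2607 were removed as likely doublets by simulated neighbours (0.8% per 1000 barcodes), with Python 3.11.15, numpy 2.4.6, scipy 1.17.1, pandas 2.3.3 and scikit-learn 1.9.0. A gate is at least 1 UMI. Counts were summed per library and class or gate and tested with edgeR 4.0.16 (quasi-likelihood, TMM, filterByExpr, two-sided, Benjamini-Hochberg over all genes at 0.05, R 4.3.3). Tissues were compared 3 against 3 and gates within libraries, with library as a block. Printed levels are CPM of the same cells without TMM. Shares and fixed-mix levels had two-sided exact permutation tests, adjusted over 8 genes. A limit from a count of 0 uses 3 counts, and it covers counting error only.

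Alternatives were DESeq2 1.42.0, library totals, no filter, no doublet removal, no cells with UMIs of other lineages, cells low or high in immediate early genes, thinning to 2000 UMIs, other weights, a replicate block and leaving out each library. On simulated data, 196, 193 and 190 genes were changed by 1 on the log2 scale, up or down. Of these, 89.8% were recovered by tissue (12112 genes), 90.7% for gates (11676 genes) and 43.2% for gate by tissue (11656 genes). False calls were 4.86%, 3.31% and 3.53% of calls. Smaller changes were not simulated and the noise was set by hand, so these rates do not give the power in these libraries. Named genes are the 8 members, up to 4 called genes per direction and list with the smallest p (1 such gene is not reported here), and the 10 most and 5 least like Klf2. Members and lists were chosen with earlier results of these data known.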

Additional observations from a re-analysis of the deposited data

Results flagged for a closer look

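The results here are gate differences that differed between the tissues, with an adjusted p under 0.05 in edgeR's interaction test. Each is given as the log2 gate difference in vascular tissue minus that in spleen. They can lie in the cells with or in the cells without a UMI of the gate gene. At the Foxp3 gate these were Klf2 (-0.66), Klf3 (-1.20) and S1pr1 (-0.43). At the Cd44 gate they were S1pr4 (-0.41) and Cd69 (0.33), neither of which passed in cells thinned to 2000 UMIs. At the Ifng gate they were Klf2 (0.53), Ccr7 (-0.44), Cd69 (0.96) and Foxo1 (0.40).

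At the Igfbp4 gate all 8 genes differed: Klf2 (0.62), Klf3 (0.78), S1pr1 (0.78), S1pr4 (0.33), Ccr7 (1.39), Cd69 (-0.78), Foxo1 (0.22) and Foxp1 (0.67). At the Klf2 gate the genes that differed were S1pr4 (-0.64), Ccr7 (0.58) and Foxo1 (-0.36), of which Ccr7 did not pass with DESeq2. At the Cd69 gate they were S1pr1 (-0.43), Ccr7 (-0.77) and Foxp1 (-0.20).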

How the results depend on the processing

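Of 1625 values of single genes under an alternative, 1403 kept their direction and side of the threshold, 142 no longer passed, 51 newly passed and 29 changed sign. Where no value is given for a cause, the cause was not tested.

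In cells low in immediate early genes, 3139 genes passed by tissue in Cd3e+ cells against 5034, and 3420 to 6078 passed when a library was left out. In those cells 3 of the 8 genes passed in the Cd44+ class, and for gate by tissue 1 passed at Foxp3, 1 at Cd44, 1 at Ifng and 0 at Cd69, where edgeR called 3, 2, 4 and 3 in all cells. Values that changed sign there were Cd69 in all Cd3e+ cells (-0.27), Foxp3+ (-0.026), Cd44+ (-0.095) and ungated cells (-0.26) and at the Igfbp4 gate (0.018), Ccr7 in Cd44+ cells (0.0070) and Klf2 at Ifng by tissue (-0.13). In cells high in them, S1pr1 in Igfbp4+ cells was -0.0015.

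With library totals, Foxp1 in Igfbp4+ cells was -0.0089, S1pr4 and Foxo1 at the Foxp3 gate were 0.11 and 0.11, Cd69 was 0.075 at the Cd44 gate and -0.0039 at the Klf2 gate, and Klf2 at the Cd69 gate was 0.023. Thinned to 2000 UMIs, 7 genes passed in ungated cells and 1 for Cd44 by tissue, which was neither S1pr4 nor Cd69. Foxo1 was then 0.15 in Ifng+ cells and 0.049 at the Foxp3 gate, and Cd69 was 0.12 at the Cd44 gate. At the Cd69 gate Klf3 was then 0.0061, and Klf2 was 0.13 and passed as higher (adjusted p = 0.0193). Without cells holding another lineage's UMI, Foxo1 in Ifng+ cells was 0.093 and Klf2 at the Cd69 gate 0.013. Without the filter, Foxo1 in Ifng+ cells was 0.019, and 5 genes passed for Cd44 by tissue and 5 for Klf2 by tissue. At the Cd69 gate 2 genes passed with DESeq2, 2 with library totals, 3 without doublet removal and 2 without other lineages, against 5.

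Leaving out 1 library, the genes that passed numbered 1 to 3 in Igfbp4+ cells, 2 to 5 in ungated cells, 2 to 5 at the Cd69 gate, 0 to 5 for Cd44 by tissue, 0 to 4 for Klf2 by tissue and 1 to 2 for Cd69 by tissue. Foxo1 in Ifng+ cells ran from -0.12 to 0.11, Klf2 in Igfbp4+ cells from -0.11 to 0.027, Cd69 in ungated cells from -0.12 to 0.28, and Klf2 at the Cd69 gate from -0.053 to 0.023.

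The share difference of Cd69 without thinning was -3.09 percentage points. At a common class mix Ccr7 was -0.064 with vascular weights, and Cd69 was -0.048 with spleen weights and -0.0072 to 0.29 when a library was left out.

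Same-numbered libraries of the 2 tissues correlated at 0.126, -0.0207 and 0.173 over 6843 genes, and differently numbered ones at -0.187 to 0.13. These ranges overlap and cannot decide whether a number marks a pair. The labels do not say either, so numbers were not taken as pairs. With the replicate block, 5020 genes and 7 of the 8 passed in Cd3e+ cells. Foxo1 in Foxp3+ cells (-0.44) no longer passed, and Klf2 in Ifng+ (-0.33), Ccr7 in Cd44+ (-0.44) and Klf3 in Igfbp4+ cells (0.33) newly passed.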
